A study of Mus musculus with 8 samples.

Results

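The collagen-rich spots of 4 mouse heart sections were described against the remaining spots of the same section. A spot is one position of the capture array (Visium) on which the RNA of a small piece of tissue is read, and it can hold several cells of different types. Members were chosen by their own readout: among spots over tissue with at least 5000 UMIs (unique molecular identifiers, each standing for one captured RNA molecule), the spots of each section were ranked by the summed UMIs of Col1a1, Col1a2 and Col3a1 as a share of all UMIs of the spot, and the top 10% were taken. This gave 654 collagen-rich spots of 6542 spots used and of 7160 over tissue. There were 141 of 1406 in sham, 205 of 2048 in TAC-2w, 119 of 1194 in TAC-4w and 189 of 1894 in TAC-6w. Because Col1a1, Col1a2 and Col3a1 chose the spots, they were left out of the results on other genes and of their totals. Their own values are given only to describe the choice. All ratios between collagen-rich and other spots are descriptions without a test.

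The hearts came from male wild type C57BL/6J mice that were 8 weeks old at the start. The mice had sham surgery or transverse aortic constriction (TAC), a narrowing of the aortic arch that raises the pressure against which the left ventricle pumps. Hearts were taken 2, 4 or 6 weeks after TAC, and the sham heart has no labelled time after surgery. Each condition had 1 section and 1 dissociated single-cell library, so no difference between conditions has a replicate. The sham and TAC-2w sections were labelled batch 1, TAC-4w batch 2 and TAC-6w batch 3, so that time after 2 weeks and batch cannot be told apart. Which part of the heart each section cuts was not given in the sources used here.

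Type I and type III collagen, encoded by the genes used for ranking, are the main fibrillar collagens of the heart. They are made chiefly by fibroblasts, processed outside the cell by proteinases and cross-linked by lysyl oxidases into fibres that carry proteoglycans, elastic microfibrils and matricellular proteins. Collagen lies in the adventitia of vessels, in valves, under the epicardium and between muscle bundles in the normal heart, and pressure overload is known to add collagen between and around cardiomyocytes and vessels. In such sections, more cells of a type in a spot and more RNA per cell cannot be told apart.

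The collagen-rich spots stood out modestly in raw molecules. The median member held 10 UMIs of the ranking genes in sham, 11 in TAC-2w, 10 in TAC-4w and 28 in TAC-6w, where the median other spot held 2, 3, 1 and 9. Summed over spots, this was 602 against 146 CPM (UMIs per 1000000 UMIs of the same spots) in sham, 515 against 153 in TAC-2w, 415 against 74.4 in TAC-4w and 1258 against 464 in TAC-6w. The other spots of TAC-6w thus carried more collagen RNA than the members of TAC-4w, and the choice within each section does not mark one collagen level across sections. The ranking had no gap at its limit. The lowest member lay at 393.4 CPM in sham, 371.0 in TAC-2w, 240.3 in TAC-4w and 925.3 in TAC-6w, and the highest spot outside lay at 393.4, 370.1, 239.5 and 925.2.

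Counting noise entered the choice. When the UMIs of every spot were divided at random into 2 sets, 35.5% of the members chosen from one set in sham were chosen again from the other, 35.6% in TAC-2w, 53.8% in TAC-4w and 39.7% in TAC-6w. Each set held only part of the UMIs of a spot, so its ranking was noisier than the one used. Spots chosen in one set still held more collagen RNA in the other set, which had no part in choosing them. That ratio was 2.85 (95% interval 2.60 to 3.12) in sham, 2.31 (2.14 to 2.48) in TAC-2w, 4.23 (3.80 to 4.71) in TAC-4w and 2.27 (2.17 to 2.38) in TAC-6w. All intervals given here cover counting error only, with exact binomial limits for ratios and shares and exact Poisson limits for levels, and they say nothing of the spread between mice.

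Depth did not move in one direction with the choice, while detected genes and the mitochondrial share did in every section. The median member had 20266 UMIs in sham, 24852 in TAC-2w, 26938 in TAC-4w and 24019 in TAC-6w, against 17953, 24531, 27987 and 24702 for the other spots. Members had more detected genes in each section, with medians of 3183 against 2751, 3703 against 3464, 4375 against 3918 and 4070 against 3793. The mitochondrially encoded share of UMIs was lower in members, at 47.0% against 52.0%, 41.7% against 43.6%, 37.6% against 42.7% and 40.6% against 44.6%. Their part in the gene results below was not tested, apart from rescaling, thinning and standardising the other spots to the depth of members. With all UMIs as the total, the median ratio of members to other spots over all genes counted was 1.15 in sham, 1.08 in TAC-2w, 1.14 in TAC-4w and 1.12 in TAC-6w, and with a total free of mitochondrial and rRNA-like features it was 1.04 in each. A typical gene is therefore slightly above 1 on the scale used here.

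Genes of the extracellular matrix, of fibroblasts and of smooth muscle were higher in the collagen-rich spots of all 4 sections, together with the natriuretic peptide gene Nppa. A gene was counted where the section held at least 200 of its UMIs, and called higher or lower where the ratio of CPM reached 1.5 in either direction. In sham 710 of 6380 genes (11.1%) were higher and 30 (0.47%) lower. TAC-2w had 476 of 8514 (5.59%) higher and 42 (0.493%) lower, TAC-4w had 884 of 7704 (11.5%) higher and 46 (0.597%) lower, and TAC-6w had 663 of 9163 (7.24%) higher and 50 (0.546%) lower. Of 6346 genes counted in each section, 148 (2.33%) were higher in all 4 and 0 (0%) lower in all 4. The interval lay above 1 in all 4 sections for 612 genes and below 1 for 39, and 35 genes were at least 2-fold higher in all 4. Of the 148, 59 belong to one of the 28 gene lists used here and 89 to none.

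Cilp had the largest geometric mean ratio over sections, 8.05. It encodes cartilage intermediate layer protein, a secreted matrix protein made by cardiac fibroblasts. Its level was 49.996 CPM in members and 4.58 in other spots of sham, 28.5 and 2.95 in TAC-2w, 135 and 13.8 in TAC-4w, and 181 and 44.7 in TAC-6w. Members thus exceeded other spots 10.9-fold (8.39 to 14.2) in sham, 9.69-fold (7.57 to 12.4) in TAC-2w and 9.80-fold (8.51 to 11.3) in TAC-4w, and 4.06-fold (3.73 to 4.40) in TAC-6w. The smaller ratio in TAC-6w went with a higher level in its other spots, while its members had the highest level of the 4 sections. Comp, which encodes another cartilage and tendon matrix protein, had too few UMIs to be counted in sham, TAC-2w and TAC-4w. It stood at 6.20 against 0.808 CPM in sham, 3.26 against 0.548 in TAC-2w, 33.3 against 1.804 in TAC-4w and 16.7 against 4.22 in TAC-6w.

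**Figure D1:**
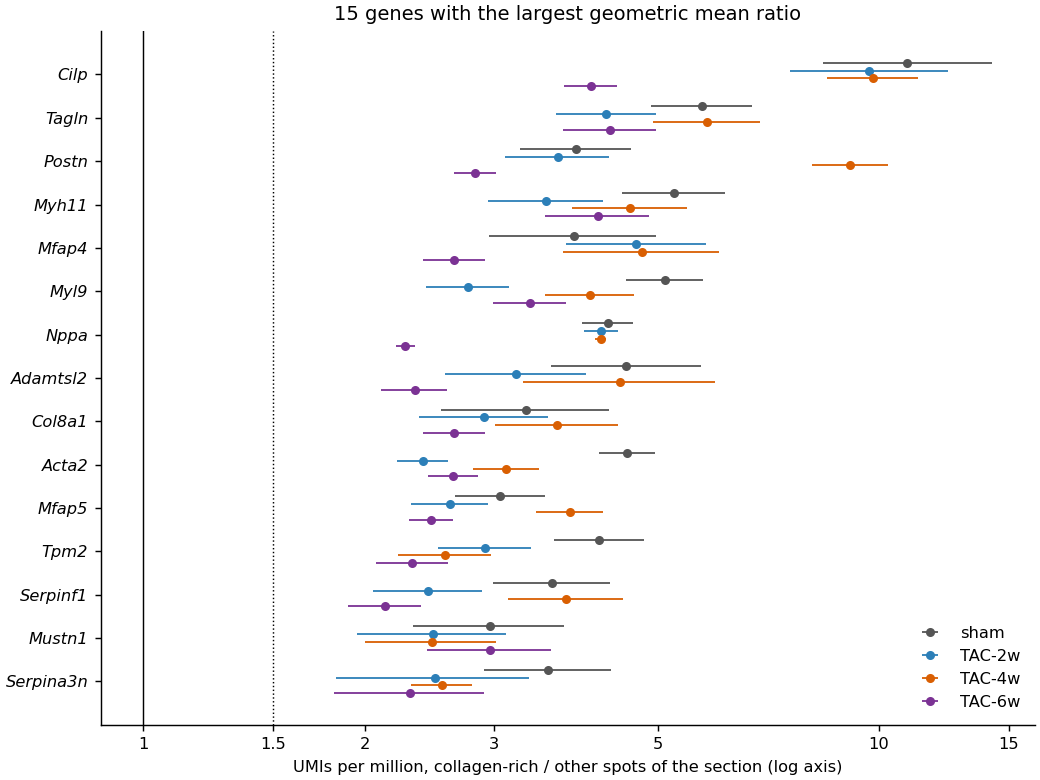
Ratio of CPM in collagen-rich spots to that in the other spots of the same section (log axis) for the 15 genes with the largest geometric mean ratio among those higher in all 4 sections. Points are single sections in 4 colours and bars are exact 95% counting intervals, the solid line marks 1 and the dotted line 1.5. Cilp lies near 10 in sham, TAC-2w and TAC-4w and at 4.06 in TAC-6w, and Postn is at 9.15 in TAC-4w and between 2.82 and 3.88 in the others.

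Postn encodes periostin, a matricellular protein of activated fibroblasts and valves. It was at 71.9 CPM in members and 18.5 in other spots of sham, 43.6 and 11.9 in TAC-2w, 183 and 20.0 in TAC-4w, and 256 and 90.8 in TAC-6w. The ratio was 3.88 in sham, 3.66 in TAC-2w, 9.15 (8.12 to 10.3) in TAC-4w and 2.82 (2.64 to 3.01) in TAC-6w, which placed Postn among the genes whose ratio differed most between sections. Of the 14 matricellular and adhesive genes listed, 8 were counted in all sections and 6 were higher in all 4, with a list median of 1.90 beside 1.11 for all genes. The others were Ccn2 (connective tissue growth factor, 2.11), Fn1 (fibronectin, 1.98), Tgfbi (1.83) and Sparc (a collagen-binding protein, 1.71), each given as its geometric mean ratio. Thbs2, a thrombospondin of the same list, was at 1.75 in sham, 1.25 in TAC-2w, 0.903 in TAC-4w and 1.76 in TAC-6w.

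The remaining collagen genes followed the ranking genes. Col5a2 and Col5a1, chains of the type V collagen that nucleates type I fibres, had geometric mean ratios of 2.44 and 2.27, and 2 of the 3 counted genes of that list of 7 were higher in all 4 sections. Col5a2 stood at 42.3 against 17.4 CPM in sham, 32.4 against 15.4 in TAC-2w, 37.7 against 12.0 in TAC-4w and 91.8 against 41.9 in TAC-6w. Among 7 further collagen genes, 5 were counted and all 5 were higher in all 4 sections, with a list median of 2.35. Col8a1, a short-chain collagen of vessel walls and activated fibroblasts, had the largest ratios, 3.31 in sham, 2.91 in TAC-2w, 3.65 in TAC-4w and 2.65 in TAC-6w. Col15a1, a collagen beside basement membranes, was at 2.42 as a geometric mean, and the type VI collagen chains Col6a2, Col6a3 and Col6a1 were at 2.35, 2.26 and 2.03.

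Genes that process collagen were higher in part. Of 18 listed, 12 were counted and 5 were higher in all 4 sections, with a list median of 1.56. These were Adamts2 (the procollagen N-proteinase, 2.32), Loxl1 (a lysyl oxidase-like cross-linking enzyme, 2.31), Pcolce (2.16) and Pcolce2 (2.10), which enhance removal of the C-propeptide, and Bmp1 (the C-proteinase, 1.802). The smallest ratios of the counted genes in the list were those of P4ha1, a prolyl hydroxylase subunit, with a geometric mean of 1.26, and the lysyl hydroxylase gene Plod1, with 1.15. Lox itself, too sparse to be counted in sham and TAC-2w, was at 1.94 in sham, 2.14 in TAC-2w, 2.16 in TAC-4w and 2.21 in TAC-6w.

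Elastic fibre and microfibril genes were higher in most cases. Of 16 listed genes 13 were counted and 10 were higher in all 4 sections, with a median of 1.94. Mfap4, a microfibril-associated glycoprotein, stood at 32.1 against 8.35 CPM in sham, 26.3 against 5.62 in TAC-2w, 34.3 against 7.22 in TAC-4w and 116 against 43.7 in TAC-6w. The ratio was 3.84 in sham, 4.68 in TAC-2w, 4.76 in TAC-4w and 2.64 (2.40 to 2.91) in TAC-6w, the last below the intervals of the others. Adamtsl2, a microfibril-binding regulator of TGF-beta, was at 4.54, 3.21, 4.45 and 2.34 in the same order. Mfap5 was at 3.06, 2.61, 3.80 and 2.46, Fbln2 (fibulin 2) had a geometric mean of 2.36, Eln (elastin) 2.31 and Fbn1 (fibrillin 1) 2.17. Efemp1, a fibulin of the same list, was at 2.10 in sham, 1.00 in TAC-2w, 1.91 in TAC-4w and 1.99 in TAC-6w.

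Small leucine-rich proteoglycans bind collagen fibrils and set their spacing. Of 10 listed genes 7 were counted and 5 were higher in all 4 sections, with a median of 1.99. Bgn (biglycan) was at 307 against 111 CPM in sham, 191 against 80.7 in TAC-2w, 352 against 101 in TAC-4w and 649 against 294 in TAC-6w, a geometric mean ratio of 2.66. Lum (lumican) was at 2.24, Prelp at 2.05 and Aspn (asporin) at 1.99. Dcn (decorin) had smaller ratios, 2.08 in sham, 1.86 in TAC-2w, 1.56 in TAC-4w and 1.93 in TAC-6w, and Ogn (osteoglycin) had a geometric mean of 1.40. Mgp, the matrix Gla protein that inhibits calcification, stood at 828 against 326 CPM in sham, 631 against 307 in TAC-2w, 1365 against 572 in TAC-4w and 1012 against 510.5 in TAC-6w.

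Basement membrane genes were less marked. Of 10 listed genes 9 were counted and 2 were higher in all 4 sections, namely Nid1 (nidogen 1, geometric mean 1.72) and Lamc1 (laminin gamma 1, 1.71), and the list median was 1.45. Col4a1, a chain of type IV collagen, was at 1.45 and Hspg2 (perlecan) at 1.37. Among 12 matrix proteases and inhibitors 8 were counted and 3 were higher in all 4 sections. They were Mmp2 (gelatinase A, 2.24), its regulator Timp2 (1.99) and the serine protease gene Htra3 (1.87), while Timp4 was at 0.964. Timp1, another inhibitor, was sparse and uneven, at 16.4 against 2.60 CPM in sham, 1.63 against 1.69 in TAC-2w, 50.5 against 10.4 in TAC-4w and 25.3 against 7.31 in TAC-6w.

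Ligands, receptors and targets of TGF-beta, a growth factor family that drives matrix production, were higher in part within each section. Those higher were 4 of 9 counted in sham, 5 of 11 in TAC-2w, 3 of 11 in TAC-4w and 4 of 12 in TAC-6w. Of 12 listed genes 9 were counted and 1, Ccn2, was higher in all 4, with a median of 1.40 beside 1.11 for all genes. The receptor genes Tgfbr1 and Tgfbr2 had geometric means of 1.51 and 1.49 and the inhibitory Smad7 had 1.31. Ccn2 itself had ratios of 2.32 in sham, 1.99 in TAC-2w, 1.81 in TAC-4w and 2.38 in TAC-6w.

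Fibroblast markers were higher together. Of 14 listed genes 11 were counted and 9 were higher in all 4 sections (Pi16, Islr, Igfbp6, Cd248, Gsn, Dpt, Pdgfra, Scara5 and Clec3b), with a median of 2.00. Summed over the list the level was 2790 against 1219 CPM in sham, 2201 against 1030 in TAC-2w, 2895 against 1425 in TAC-4w and 2776 against 1456 in TAC-6w. Pi16, a marker of adventitial fibroblasts, had ratios of 3.09, 2.20, 2.76 and 2.21 and Pdgfra, the receptor that marks most cardiac fibroblasts, had a geometric mean of 1.92. Ddr2, a collagen receptor, was at 1.52 and Smoc2 at 1.65. The summed marker level of members thus spanned a narrower range over sections than their Cilp or Postn level. Of 8 complement genes known to be made by stromal cells, 7 were counted and 6 were higher in all 4 sections (among them Serping1, C1ra, C4b, C3 and C1s1), with a median of 2.09.

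Smooth muscle genes had the highest list median. Of 7 listed genes 6 were counted and 5 were higher in all 4 sections, with a median of 3.40. Tagln (transgelin) stood at 101 against 17.6 CPM in sham, 48.7 against 11.4 in TAC-2w, 76.7 against 13.1 in TAC-4w and 60.1 against 13.96 in TAC-6w. Myh11, the smooth muscle myosin heavy chain, had ratios of 5.27, 3.53, 4.59 and 4.15, Myl9 had 5.12, 2.76, 4.04 and 3.35, and Acta2 (smooth muscle actin, also made by myofibroblasts) had 4.54, 2.40, 3.11 and 2.63. Mylk, the myosin light chain kinase, had a geometric mean of 2.06, and Smtn (smoothelin) had 1.11. Tpm2 and Mustn1, muscle genes that stand in none of the lists, had geometric means of 2.92 and 2.70. Pericyte and endothelial lists did not share this: none of 7 pericyte genes and none of 11 endothelial genes was higher in all 4 sections, and their medians were 1.19 and 1.12. Of 8 genes listed for endocardium and large vessels, 3 were counted and none was higher in all 4 sections, with a median of 1.53. Summed, that list was higher in members 1.63-fold in sham, 1.54-fold in TAC-2w, 2.34-fold in TAC-4w and 1.26-fold in TAC-6w.

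A minority of the collagen-rich spots were also among those highest in smooth muscle genes, and whether they hold vessel walls was not tested. Of the members, 26.2% in sham, 24.9% in TAC-2w, 26.9% in TAC-4w and 19.0% in TAC-6w were also in the top 10% of their section for the smooth muscle list. In these members Cilp was at 137, 68.8, 285 and 416 CPM, and in the remaining members at 13.9, 14.6, 75.6 and 133. After all spots in the smooth muscle top 10% were taken out of both sides, members still exceeded other spots for Cilp, by 4.08 (2.51 to 6.44) in sham, 6.00 (4.21 to 8.46) in TAC-2w, 6.56 (5.39 to 7.97) in TAC-4w and 3.11 (2.81 to 3.44) in TAC-6w. Tagln, which the removal selects on, was then at 0.809, 1.48, 1.61 and 1.32. When the spots were ranked anew without those of the smooth muscle top 10%, a setting chosen after the data were seen, 78 of 5832 genes counted were higher in all 4 sections, and 75 of them were among the 148.

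Matrix genes differed in how much of their excess lay in the members of the smooth muscle top 10%, here called high in smooth muscle genes. The remaining members were not free of these genes. Of all members, 90.8% in sham, 96.6% in TAC-2w, 91.6% in TAC-4w and 94.2% in TAC-6w held a UMI of the list. Postn in the remaining members stood 2.35-fold above other spots in sham, 3.16-fold in TAC-2w, 10.2-fold (8.98 to 11.7) in TAC-4w and 2.55-fold in TAC-6w. In TAC-4w its level was 198 CPM in the remaining members and 145 in those high in smooth muscle genes, the reverse of sham, where it was 40.7 and 147. Mfap4 in sham was at 82.4 CPM in members high in smooth muscle genes and 11.3 in the remaining members, whose ratio to other spots was 1.56 (0.949 to 2.45). Dcn hardly depended on the removal, at 1.90, 1.77, 1.44 and 1.83. Thbs4, a thrombospondin, was concentrated in members high in smooth muscle genes in sham (25.0 against 2.58 CPM in the remaining members), TAC-2w (13.4 against 1.10) and TAC-6w (164 against 13.5), and nearly even in TAC-4w (30.9 against 23.9). Comp was higher there in sham (16.2 against 2.06), TAC-4w (79.6 against 15.0) and TAC-6w (68.9 against 5.96). In TAC-2w it was at 3.16 against 3.30, a ratio of 0.959 with an interval (0.226 to 3.17) too wide to give a direction. Intervals were also wide in sham, where the ratio was 7.88 (2.43 to 33.2) for Comp and 9.69 (3.53 to 33.05) for Thbs4. For Thbs4 the ratio was 12.2 in TAC-2w, with a lower limit of 3.99, and 1.29 (0.772 to 2.11) in TAC-4w.

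Nppa, which encodes atrial natriuretic peptide and is induced in loaded ventricular cardiomyocytes, was higher in members of every section. It stood at 337 against 78.7 CPM in sham, 430 against 103 in TAC-2w, 6200.2 against 1480 in TAC-4w and 1142 against 503 in TAC-6w. The ratio was 4.28 (3.95 to 4.64), 4.19 (3.97 to 4.41), 4.19 (4.12 to 4.26) and 2.27 (2.20 to 2.34). It was the only one of 7 listed load-response genes to be higher in all 4 sections, and the list median was 1.39. Ankrd1, a stretch-responsive sarcomere gene, was at 1.74, 1.76, 1.88 and 1.296, and Nppb, the second natriuretic peptide gene, at 1.23, 1.48, 1.37 and 1.37. Myh7, the beta myosin heavy chain of stressed mouse ventricle, was at 82.5 against 37.4 CPM in sham, 34.4 against 22.1 in TAC-2w, 7313 against 7309 in TAC-4w and 143 against 91.2 in TAC-6w.

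Atrial marker genes were low in members and in other spots. The atrial genes Myl4, Myl7, Sln and Nr2f1 together were at 5.84 CPM in the members of sham, 6.32 in TAC-2w, 8.41 in TAC-4w and 7.30 in TAC-6w, against 5.12, 4.98, 5.07 and 5.66 in other spots. The ratio was 1.66 (1.04 to 2.55) in TAC-4w, and the intervals of the other sections include 1. Sln, a defining atrial gene, had no UMI in the members of any section. In sham, TAC-2w and TAC-4w, 1 of the 4 genes had no UMI in any spot used. Of the members, 22.0% in sham, 22.0% in TAC-2w, 30.3% in TAC-4w and 22.2% in TAC-6w were in the top 10% of their section for Nppa. Members in the top 10% for both Nppa and the smooth muscle list numbered 13 in sham, 13 in TAC-2w, 14 in TAC-4w and 18 in TAC-6w. Members in neither made up 61.0%, 59.5%, 54.6% and 68.3%.

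Macrophage genes were moderately higher. Of 12 listed genes 10 were counted and none reached 1.5 in all 4 sections, but the list median was 1.56, and 9 of 10 in sham, 4 of 12 in TAC-2w, 8 of 12 in TAC-4w and 3 of 12 in TAC-6w passed within their section. The summed list stood at 881 against 472 CPM in sham, 639 against 439 in TAC-2w, 1413 against 892 in TAC-4w and 1085 against 741 in TAC-6w. Mrc1, the mannose receptor of resident macrophages, had a geometric mean of 1.65, Lyz2 (lysozyme) 1.64 and Folr2 1.58. The platelet factor 4 gene Pf4 and the chemokine gene Ccl6, both also made by macrophages, were higher in all 4 sections at 1.76 and 1.70. Of the members, 27.0%, 21.0%, 28.6% and 25.9% were in the top 10% for the macrophage list.

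Most single markers of valve and epicardial cells were too sparse to be counted in all 4 sections. Of 10 valve and annulus genes and 12 epicardial and mesothelial genes, none and 1 (the complement gene C3) were counted in all 4 sections. The summed valve list was higher in members 2.88-fold in sham, 2.11-fold in TAC-2w, 3.99-fold in TAC-4w and 2.21-fold in TAC-6w. These sums rested on 90, 119, 214 and 312 UMIs in members, and the part of single genes in them was not tested. Wif1, a defining valve gene, had no UMI in the members of TAC-4w. The summed epicardial list was 2.31-fold (2.14 to 2.48), 2.07-fold, 1.92-fold and 1.74-fold higher, and 29.1%, 20.5%, 22.7% and 20.6% of members were in its top 10%. Most of that sum was C3, at 324 of 336 CPM in the members of sham, 103 of 111 in TAC-2w, 372 of 424 in TAC-4w and 196 of 235 in TAC-6w. Of the epicardial genes with low counts, Upk3b was at 1.83 against 1.75 CPM in sham, 0.815 against 0.868 in TAC-2w, 13.8 against 4.13 in TAC-4w and 7.51 against 3.37 in TAC-6w, and Msln (mesothelin) at 2.55 against 2.43 in sham, 1.22 against 1.21 in TAC-2w, 16.2 against 5.20 in TAC-4w and 10.1 against 4.71 in TAC-6w. The adipocyte list had 1 UMI in all spots used of sham, 2 in TAC-2w, 1 in TAC-4w and 2 in TAC-6w, and none in members. Schwann cell genes, summed, had ratios of 1.499 (0.946 to 2.29), 1.84 (1.29 to 2.56), 2.24 (1.37 to 3.52) and 2.90 (2.19 to 3.80). The interval of sham includes 1. These sums rested on 26, 43, 24 and 72 UMIs in members, and no gene of the list was counted in any section. The part of these cell types in the matrix results was not tested.

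Contractile and calcium-handling genes of cardiomyocytes made up nearly the same share of all UMIs, mitochondrial ones included, inside and outside the collagen-rich spots. The mitochondrial share of those UMIs was lower in members, as given above. None of 17 contractile and calcium-handling genes was lower or higher in all 4 sections, and their median ratio was 0.966 beside 1.11 for all genes. Summed, the list stood at 69847 against 70334 CPM in sham, 75246 against 76662 in TAC-2w, 58605 against 61130 in TAC-4w and 69213 against 72001 in TAC-6w. The summed ratio was 0.993, 0.982, 0.959 and 0.961. Nuclear-encoded respiratory chain genes (18 counted, median 0.948) and fatty acid genes (12 counted, median 0.939) were also slightly below 1, and none was 1.5-fold lower in all 4 sections. Eci1, an enzyme of fatty acid oxidation, had the smallest ratio of its list, at 0.903, 0.898, 0.790 and 0.884. Ckm, the muscle creatine kinase, was at 0.932, 0.935, 0.821 and 0.931, and Myh6, the adult myosin heavy chain, at 1.01, 0.971, 0.876 and 0.965. The deepest of these values was in TAC-4w each time.

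Some genes followed the collagen share in particular sections only. Vwf, the von Willebrand factor of endothelium and endocardium, was at 1.34 in sham, 1.41 in TAC-2w, 3.08 (2.63 to 3.60) in TAC-4w and 1.04 in TAC-6w. Ccl21a, a chemokine of lymphatic endothelium, went the opposite way, at 2.99, 2.69, 0.744 (0.479 to 1.11) and 2.76, and it shares sequence with near-identical Ccl21 genes that reads may not separate. Serpina3n, an acute phase protease inhibitor with close relatives in the same gene family, was higher in members of all sections, and its level in them was 53.3 CPM in sham, 11.8 in TAC-2w, 185 in TAC-4w and 20.0 in TAC-6w.

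Collagen-rich spots were more frequent beside collagen-rich spots than beside other spots in every section, although most neighbours of a collagen-rich spot were other spots. On the array a spot has up to 6 adjacent spots, and position had no part in the choice. In sham 22.5% (19.7 to 25.6) of the spots adjacent to a member were members, against 8.90% of those adjacent to another spot. In TAC-2w the shares were 14.9% (12.9 to 17.1) and 9.36%, in TAC-4w 25.4% (22.1 to 28.9) and 8.02%, and in TAC-6w 15.5% (13.4 to 17.9) and 9.16%. Members were thus 2.53 times as frequent beside members as beside other spots in sham, 1.59 times in TAC-2w, 3.17 times in TAC-4w and 1.70 times in TAC-6w. A pair of adjacent members is counted from both sides and adjacencies share spots, so the intervals are too narrow and do not compare sections. The shares in sham and TAC-4w depended on the ranking gene. Ranked by Col3a1 alone or Col1a1 alone, the share beside members was 13.7% or 14.6% in sham and 18.9% or 20.8% in TAC-4w, still above that beside other spots in each section. With spots thinned to 5000 UMIs the difference was smallest in TAC-2w, at 11.0% beside members and 9.77% beside other spots.

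**Figure D2:**
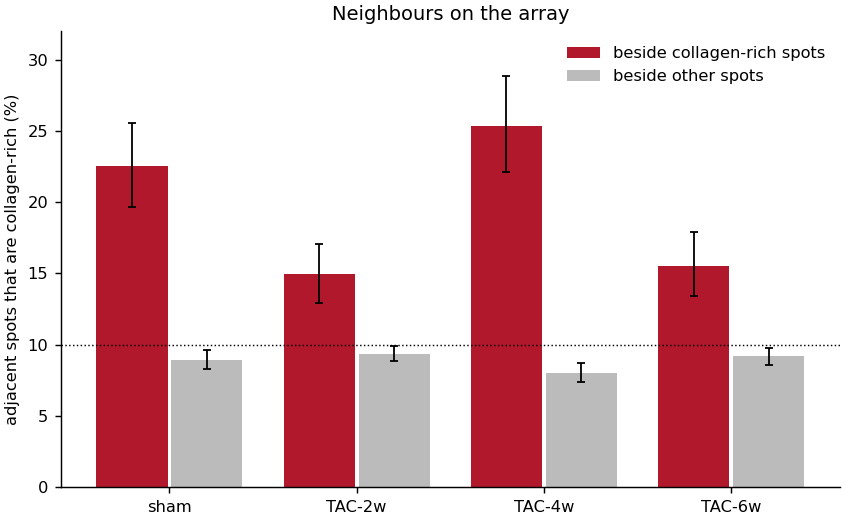
Share of adjacent spots that are collagen-rich (%), beside collagen-rich spots (red) and beside other spots (grey), for each section. Bars are shares with exact 95% counting intervals, and the dotted line marks the 10% of spots that are collagen-rich. Red bars lie between 14.9% and 25.4% and grey bars between 8.02% and 9.36%.

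Most connected groups were small. Joined through adjacency, the members formed 71 groups in sham, 130 in TAC-2w, 57 in TAC-4w and 117 in TAC-6w, the largest holding 10, 8, 21 and 9 spots. Members with no adjacent member made up 28.4% in sham, 45.9% in TAC-2w, 31.9% in TAC-4w and 44.4% in TAC-6w. Groups of at least 5 spots numbered 5, 8, 4 and 6 and held 35, 45, 41 and 39 members. In TAC-4w the largest group joined members inside and outside the smooth muscle top 10%, as the map of the sections shows. The edge of the tissue was not shared by all sections: 5.67% of members and 11.0% of other spots touched it in sham, 11.7% and 7.70% in TAC-2w, 15.97% and 9.77% in TAC-4w, and 12.2% and 7.51% in TAC-6w.

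**Figure D3:**
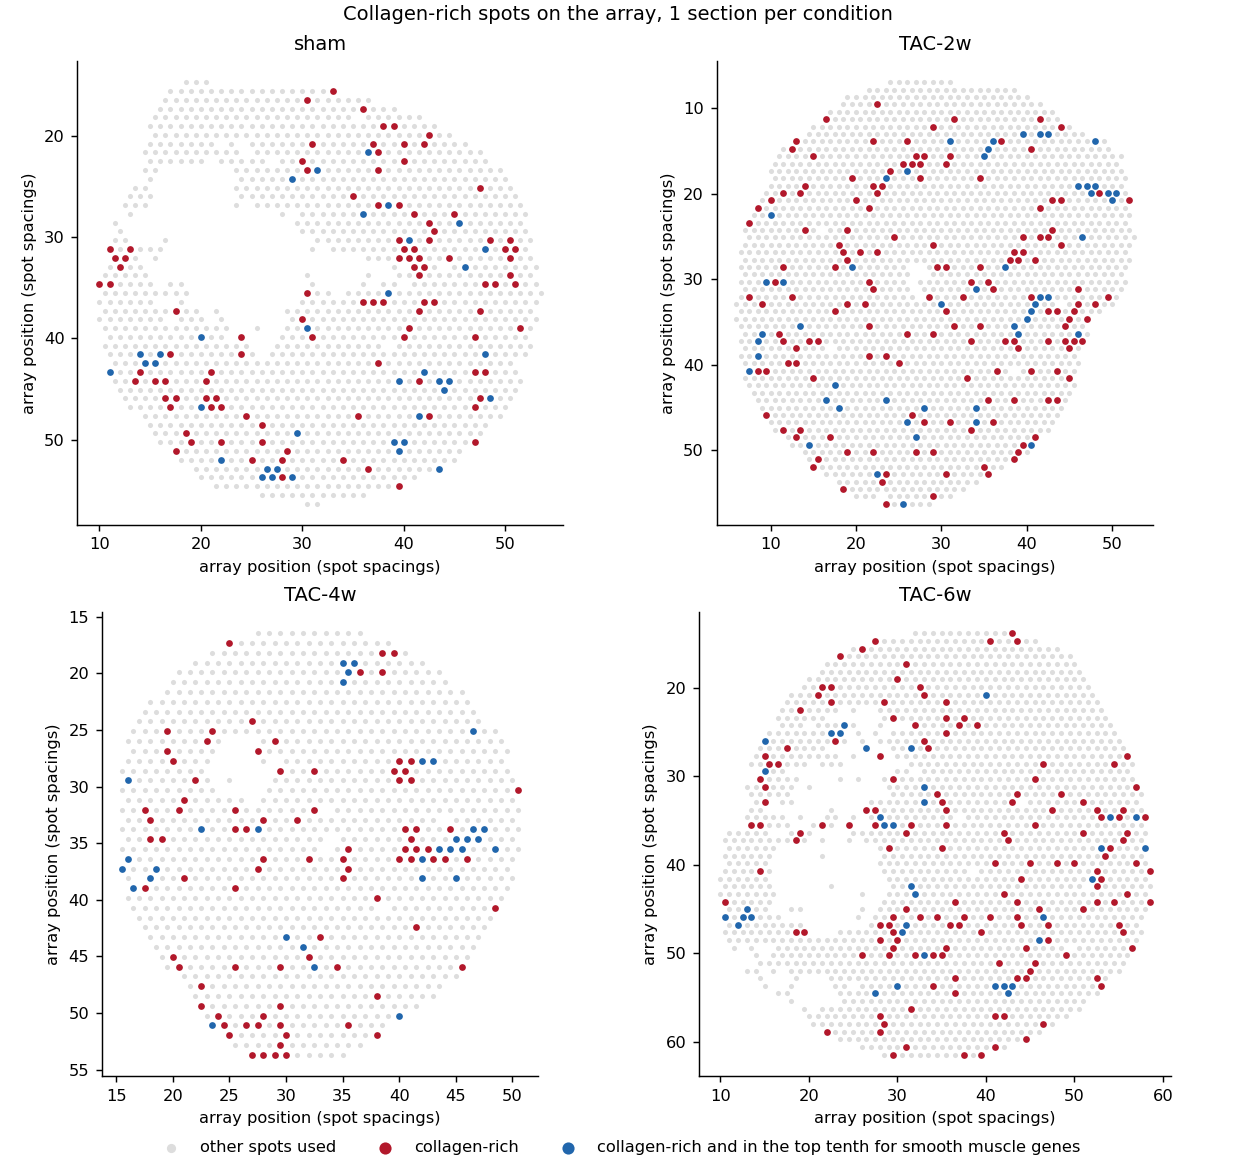
Array positions (in spot spacings) of the spots used in each section, with other spots in grey, collagen-rich spots in red and collagen-rich spots that are also in the top 10% for smooth muscle genes in blue. Short rows and clumps of members are scattered over each section, and the largest connected group has 10 spots in sham, 8 in TAC-2w, 21 in TAC-4w and 9 in TAC-6w.

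In groups of at least 5 spots, Nppa had the largest geometric mean ratio to the remaining members, although smooth muscle genes exceeded it in TAC-2w and TAC-6w. Nppa stood at 897 CPM in the groups and 163 in the remaining members of sham, 410 and 436 in TAC-2w, 11403 and 2094 in TAC-4w, and 2712 and 781 in TAC-6w. The ratio was 5.49 (4.80 to 6.29), 0.941 (0.847 to 1.04), 5.45 (5.25 to 5.65) and 3.47 (3.29 to 3.67), so TAC-2w did not share it. These values rest on few groups. In TAC-4w there were 4, the largest holding 21 of the 41 spots, and the part of single groups was not tested. Postn was higher in the groups of each section, 2.89-fold, 2.12-fold, 3.15-fold and 1.53-fold. Tagln was 1.34-fold, 1.98-fold, 1.62-fold and 5.47-fold higher and Myh11 1.63-fold, 1.88-fold, 0.996-fold and 7.04-fold, so that smooth muscle genes marked the grouped spots most in TAC-6w. Dcn was even, at 1.14, 1.08, 1.07 and 1.10. Poldip3, a gene of mRNA export, was also among the 5 largest of 5602 genes compared, at 2.47, 1.76, 1.94 and 1.63 with intervals that include 1 in TAC-2w and TAC-6w. The 5 smallest, Ddx21, N4bp1, Efnb3, Serpinb9 and Fam53b, are low genes, and Fam53b had no UMI in the groups of sham.

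Cilp, Nppa, Tagln and the macrophage list were lower in spots 1 step away than in the collagen-rich spots of each section, and some were higher again farther off. Cilp in sham was at 49.996 CPM in members, 7.43 in spots 1 step away, 3.32 at 2 steps and 2.18 farther off. In TAC-2w it was at 28.5, 4.77, 1.87 and 1.56, in TAC-4w at 135, 23.3, 11.9 and 7.32, and in TAC-6w at 181, 59.3, 43.9 and 26.5. Spots 1 or more steps away are other spots by definition. The drop over the first step therefore repeats the comparison of members with other spots and is no separate reading of distance. From 1 step outward, Cilp went on declining in each section. Nppa had a proportionally smaller drop over the first step in each section. It went from 337 to 117, 67.2 and 40.3 in sham and from 6200.2 to 2336, 1444 and 783 in TAC-4w. In TAC-6w it went from 1142 to 701, 412 and 339, and in TAC-2w from 430 to 144, 67.2 and 87.4. Tagln at 1 step was at 26.1 CPM in sham, 15.9 in TAC-2w, 18.8 in TAC-4w and 15.4 in TAC-6w, and in TAC-6w it was at 11.6 at 2 steps and 14.6 farther off. The smooth muscle list in TAC-6w went likewise from 502 to 221, 196 and 226. The macrophage list went from 881 to 528, 480 and 388 in sham and from 1085 to 788, 696 and 728 in TAC-6w, and the cardiomyocyte list stayed between 58605 and 76939 CPM at every distance in all 4 sections.

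**Figure D4:**
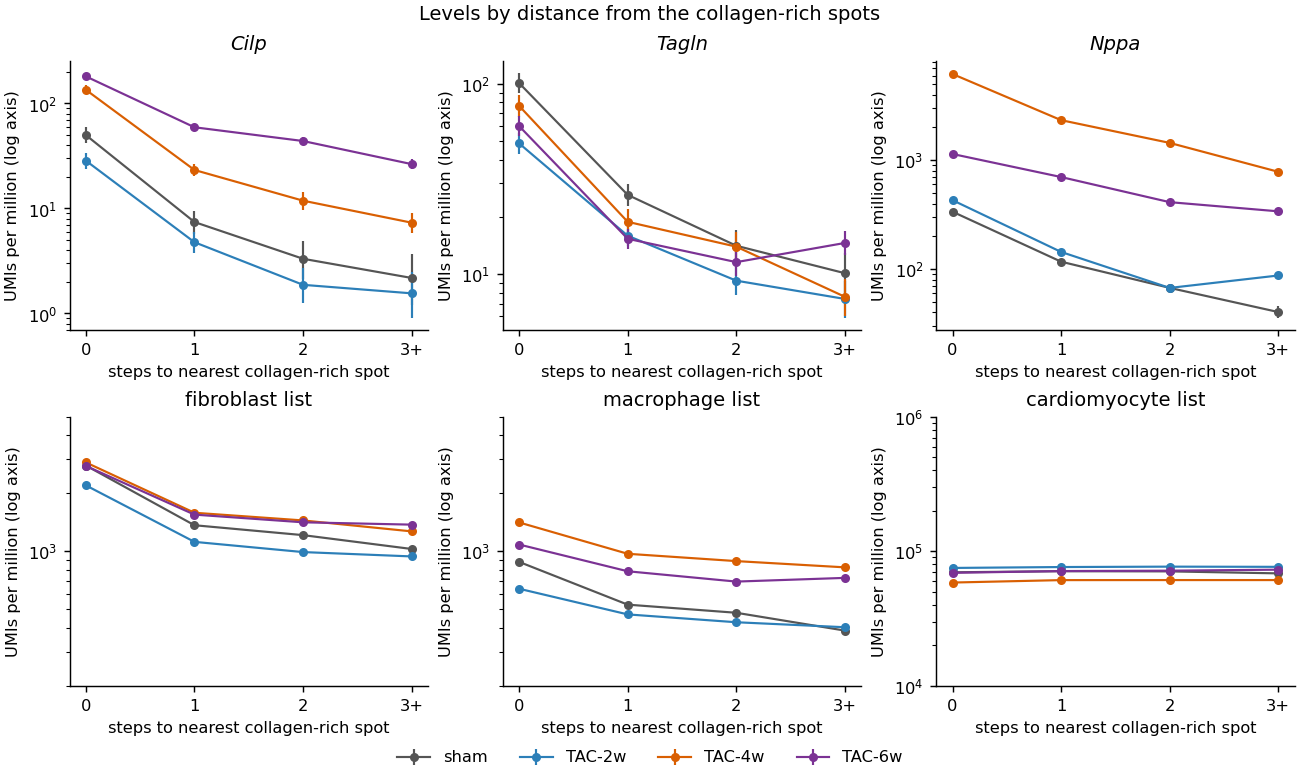
CPM of 3 genes and 3 summed lists (log axes) in collagen-rich spots (0) and in spots 1, 2 and 3 or more steps from the nearest one, with a line per section and exact Poisson 95% intervals. Cilp in sham falls from 49.996 to 2.18, Nppa in TAC-4w from 6200.2 to 783, and the cardiomyocyte list is level.

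The pattern over the whole range of collagen share differed between genes. When all spots used were split into 10 equal classes by collagen share, Cilp in sham was at 49.996 CPM in the top class, 4.97 in the next and 1.35 in the lowest, and in TAC-2w at 28.5, 5.82 and 1.54. In TAC-6w it was at 181, 82.9 and 23.8, a more gradual slope. Dcn had a shallower slope, at 848 CPM in the top class of sham, 592 in the next and 324 in the lowest. The smooth muscle list in sham was at 800, 337 and 190, and in TAC-6w at 502, 245 and 216. Nppa in TAC-4w was at 6200.2 CPM in the top class, 3444 in the next, 2021 in the third and between 891 and 1317 in the others. Cilp in the lowest class rested on 2 UMIs in sham and 7 in TAC-2w. In sham the median depth was 7574.5 UMIs in the lowest class and 20266 in the top class. No UMI of the ranking genes was found in 254 spots of sham and 272 of TAC-4w. The lowest classes of these sections are thus not graded by collagen share.

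Levels of the members themselves differed between sections, each a single section. The totals include mitochondrial UMIs, which were 47.0% in the members of sham and 41.7%, 37.6% and 40.6% in those of TAC-2w, TAC-4w and TAC-6w. In other spots they were 52.0%, 43.6%, 42.7% and 44.6%, and the ratios to sham below are not adjusted for this. Cilp in the members of TAC-2w was 0.571 times that in the members of sham, with 2.70 times in TAC-4w and 3.62 times in TAC-6w, and in the other spots 0.643, 3.01 and 9.75 times. Postn in members was at 0.607, 2.55 and 3.57 times sham, and in other spots at 0.643, 1.08 and 4.90 times. In TAC-4w the excess of Postn over sham was in the collagen-rich spots, and in TAC-6w it was in both. Mfap4 was near sham in the members of TAC-2w (0.819) and TAC-4w (1.07) and at 3.60 times in TAC-6w. Smooth muscle genes were lower than in sham: Tagln was at 0.482, 0.759 and 0.594 times in members, and Acta2 at 0.554, 0.582 and 0.618 times, with 1.05, 0.849 and 1.07 times in the other spots. Nppa was at 1.28, 18.4 and 3.39 times sham in members and 1.304, 18.8 and 6.39 times in other spots. Dcn was within 0.933 and 1.28 times sham in members. Of the TAC sections, TAC-2w alone shares its batch label with sham.

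The single-cell libraries of the same 4 conditions gave a second reading of the 148 genes, since a droplet holds mostly one cell where a spot holds several. The barcodes used were 8228 in sham, 6501 in TAC-2w, 6747 in TAC-4w and 5577 in TAC-6w. The 5% with the highest share of the ranking genes were set against barcodes with no UMI of them (411 against 2500, 325 against 2153, 337 against 5970 and 279 against 2361). The libraries of sham and TAC-6w were labelled batch 3, TAC-2w batch 1 and TAC-4w batch 2, and TAC-4w had by far the most barcodes without collagen. Between any pair of libraries 9 to 21 barcode sequences of those used were shared. Barcodes in the top 5% were deeper, with median UMIs of 11775 against 5843, 14053 against 7089, 14154 against 4331 and 7150 against 2320, and the part of depth was not tested.

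Most genes that were higher in collagen-rich spots were also higher in collagen-high barcodes. In sham 128 of 148 counted genes were higher and 10 lower, where 26.5% of all genes counted were higher and 25.9% lower. In TAC-2w it was 129 and 8 of 148 (all genes 25.6% and 26.2%), in TAC-4w 135 and 5 of 146 (31.3% and 27.4%), and in TAC-6w 130 and 7 of 145 (31.6% and 27.1%). The median ratio of the genes was 24.8, 32.6, 45.1 and 35.7, beside 1.04, 1.02, 1.07 and 1.10 for all genes. Of 143 genes counted in each library, 124 were higher in all 4. The share of all genes that were higher, or lower, in all 4 libraries was not computed. This count and that of lower genes below thus have only the shares of single libraries beside them. Cilp was at 461, 379, 612 and 348 times and Postn at 44.2, 90.2, 485 and 207 times. These ratios are set against barcodes chosen to hold no collagen RNA, and so are on another scale than those between spots.

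A small set of genes was higher in collagen-rich spots but not in the collagen-high barcodes of all 4 libraries. Lower in all 4 libraries were 4 of the 143, namely Nppa (0.0911, 0.173, 0.171 and 0.0691), Mylk (0.149, 0.237, 0.146 and 0.229) and the macrophage products Pf4 (0.00947, 0.0324, 0.0620 and 0.0116) and Ccl6 (0.00498, 0.0378, 0.0233 and 0.0105). Of the smooth muscle genes, 4 were counted in each library and none was higher in all 4. The ratio of Tagln was 0.612 in sham, 0.680 in TAC-2w, 3.48 in TAC-4w and 2.58 in TAC-6w, and that of Acta2 0.531, 0.505, 3.71 and 0.660. Tagln was at 42.0, 58.4, 56.7 and 251 CPM in collagen-high barcodes and at 68.7, 85.9, 16.3 and 97.0 in collagen-free ones. Acta2 was at 46.4, 49.7, 106 and 71.0 CPM against 87.4, 98.4, 28.5 and 108. The higher ratios of TAC-4w thus went with a lower level in its collagen-free barcodes. Myh11, counted in fewer than 4 libraries, had ratios of 0.0200, 0.0848, 0.257 and 0.0617, from 3, 13, 3 and 4 UMIs in the collagen-high barcodes. Nppa had 167, 326, 21 and 5 UMIs in those barcodes. Tgfbi, a matricellular gene also made by macrophages, had ratios of 0.544, 0.482, 2.02 and 0.692.

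**Figure D5:**
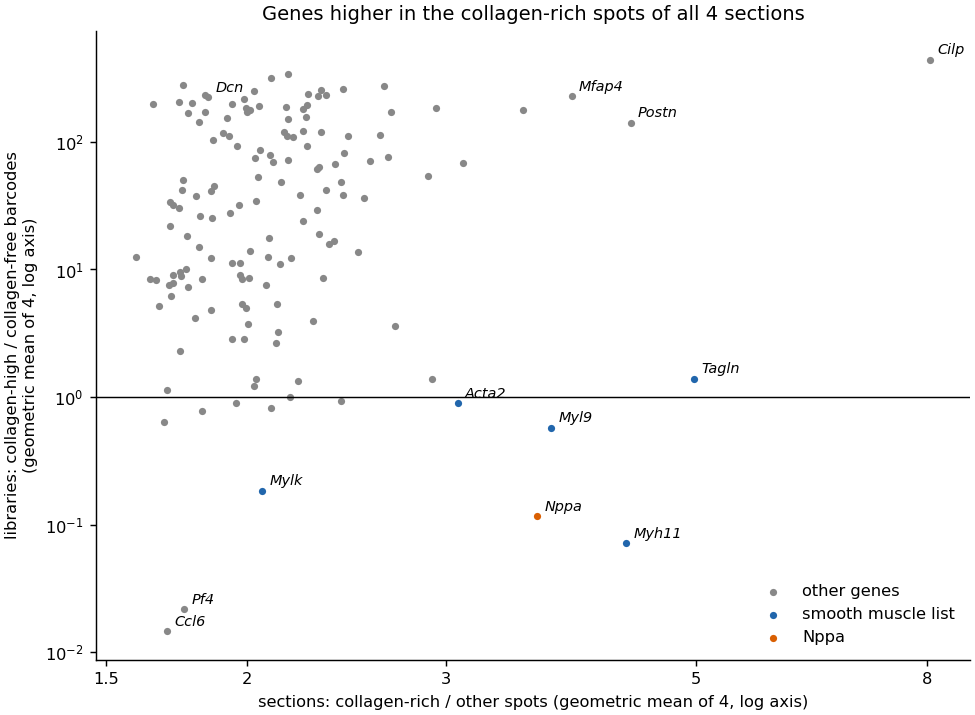
The 148 genes higher in the collagen-rich spots of all 4 sections, by geometric mean ratio in the sections (x axis, log) and in the single-cell libraries between collagen-high and collagen-free barcodes (y axis, log), with smooth muscle genes in blue and Nppa in orange. Most points lie above the line at 1, and Mylk, Nppa, Myh11, Pf4 and Ccl6 lie well below it.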

How the data were processed

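RNA was measured in 4 Visium sections and 4 dissociated single-cell libraries of mouse heart, 1 of each per condition. The deposited files hold UMI counts per gene and barcode, made by the authors on mm10 per the labels. Space Ranger 1.3.1 and Cell Ranger 7.0.0 stand in the submitters' processing notes, and 1.2.0 and 6.0.0 in the file headers. The library labels describe nuclei where the study's methods describe cells, so barcodes are named here without deciding between them. Sections held 25996378 UMIs over tissue in sham and 48754396, 31942372 and 48288659 after 2, 4 and 6 weeks of TAC, and the libraries 28298581 to 77095467 UMIs in the barcodes used.

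Spots with fewer than 5000 UMIs were left out (270, 15, 34 and 299). The counts of collagen-rich and other spots were summed per gene and section and scaled to UMIs per 1000000 UMIs of all genes but Col1a1, Col1a2 and Col3a1. Ratios had exact conditional binomial 95% intervals, levels exact Poisson and shares Clopper-Pearson intervals. With 1 section per condition no test was made. Adjacent spots were read from the array positions. A geometric mean ratio is taken over the 4 sections. Single-cell barcodes had 200 to 6000 genes, 500 to 30000 UMIs and under 15% mitochondrial UMIs, and doublets were not removed further.

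The members and gene lists were chosen with earlier results of these data known. Named genes were the 15 largest in all 4 sections, up to 4 largest and 2 smallest per list, the 3 largest per section, the 5 whose ratio differed most between sections and the 5 largest and smallest in groups of spots. Comp, Timp1, Thbs4, Dcn, Mgp, Col15a1 and genes named to complete a list, or in no list, were added after their values were seen. Some results that this rule selects are not reported here. Alternatives covered the share of spots taken, the UMI and gene minimums, the ranking genes, the totals, thinning, distance and the leaving out of each section. Scripts were tested on simulated data and ran in Python 3.11.15 with numpy 2.4.6, scipy 1.17.1, pandas 2.3.3 and matplotlib 3.10.9.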

Additional observations from a re-analysis of the deposited data

Results flagged for a closer look

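Cbr1, which encodes a carbonyl reductase, was higher in the collagen-rich spots of one section and lower in those of another. Its ratio of CPM in collagen-rich spots to other spots was 1.71 in sham (interval 1.28 to 2.25) and 0.644 in TAC-4w (0.426 to 0.938), with 1.06 in TAC-2w and 0.993 in TAC-6w. Each value comes from 1 section, and the difference was not tested.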

How the results depend on the processing

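The count of 148 genes higher in all 4 sections changed with the gene minimum, the fold, the ranking gene and thinning. It was 284 of 10312 genes counted at a minimum of 50 UMIs, 479 of 15635 at 1 and 79 of 3221 at 500, beside 148 of 6346. It was 35 at 2-fold and 85 when ranked by Col1a1 alone, each of 6346 counted. With spots thinned to 5000 UMIs it was 15 of 2122. Without the smooth muscle top 10%, a setting chosen after the data were seen, it was 78 of 5832. It was 147 of 6037 with a spot minimum of 10000 UMIs and 153 of 6437 with none. With other spots standardised to the depth of members it was 150 of 6346. Genes lower in all 4 sections numbered 306 of 15635 at a minimum of 1 and 0 otherwise. At that minimum a sparse gene without any UMI in the members has a ratio of 0 and is called lower. Leaving out each section in turn gave 166 to 193 genes higher and 0 to 0 lower. No paired analysis between conditions was possible because each condition has a single replicate, so that no replicate numbers pair them. Collagen-rich and other spots were compared within the same section throughout, without a test.

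The share of neighbours of collagen-rich spots that were collagen-rich was above that of other spots in each section under each setting tried. With the top 5% it was 15.5% in sham, 10.3% in TAC-2w and 9.23% in TAC-6w, and with the top 20% it was 27.2%, 26.6%, 33.7% and 26.9%. Beside other spots the share lay between 3.81% and 4.72% with the top 5%, and between 16.3% and 18.7% with the top 20%. In sham it was 18.9% with no UMI minimum or with 10000. Ranked by Col3a1 alone it was 13.7% in sham and 18.9% in TAC-4w, and by Col1a1 alone 14.6% and 20.8%. Thinned it was 18.8%, 11%, 18.2% and 12.7%, and within 2 steps 16.1% in sham and 19.5% in TAC-4w. Without the smooth muscle top 10% it was 12.5% in TAC-6w. Apart from the changes of top share, thinning and gene minimum, which by construction alter the number of spots, UMIs or genes, the cause was not tested.

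No geometric mean ratio of a named gene higher in all 4 sections fell below 1 under these settings. In a single section, Tagln was at 0.809 in sham among spots outside the smooth muscle top 10%. Of 3230 gene values 909 moved by more than their interval, and of 391 list medians 96 moved. A single section per condition, few collagen UMIs per spot and the shared batch and time are the main limits, and thinned counts are too sparse for most genes.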

Other observations

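Genes with the interval of their ratio below 1 in all 4 sections numbered 39. They included mitochondrially encoded genes such as mt-Co1 (cytochrome oxidase subunit 1), at 0.899 in sham, 0.9496 in TAC-2w, 0.868 in TAC-4w and 0.909 in TAC-6w, and mt-Atp8, at 0.805, 0.920, 0.866 and 0.876. Nuclear genes among them were Lpl (lipoprotein lipase, 0.926, 0.928, 0.853 and 0.915), Acadm (medium-chain acyl-CoA dehydrogenase, 0.898, 0.898, 0.849 and 0.900) and Pln (phospholamban, 0.962, 0.964, 0.940 and 0.924).

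Neutrophil genes went different ways. Summed over 4 genes, they stood at 149 against 81.5 CPM in collagen-rich and other spots of TAC-4w, a ratio of 1.83 (1.65 to 2.03), and at 17.9 against 30.2 in sham, a ratio of 0.593 (0.434 to 0.793), with 0.733 in TAC-2w and 0.784 in TAC-6w. Red blood cell genes, at 1.26 in TAC-4w and 0.928 in sham, differed in the same direction. Lymphocyte and plasma cell genes were at 2.35 (2.01 to 2.73) in TAC-6w and 0.777 (0.564 to 1.05) in TAC-2w, where the immunoglobulin kappa gene Igkc was at 3.77 and 0.320.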
